A study of Mus musculus with 42 samples.

Results

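The 10 genes described here are Bmp6, a ligand of the bone morphogenetic protein (BMP) pathway, the SMAD genes Smad6, Smad7 and Smad9, the inhibitor of DNA binding genes Id1, Id2 and Id3, the hepcidin genes Hamp and Hamp2, and Tfrc, the transferrin receptor. They are 10 of the 19756 gene names in the 6 deposited tables, and each was listed in all 6. The set was chosen by hand from results of these same tables, starting at Smad9, whose counts with and without RvE1 in WT obese mice had drawn attention. Counts of these genes past a threshold therefore describe them and lend the choice no support.

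Liver RNA was sequenced from 42 male C57BL/6J mice, 7 mice in each of 6 groups, with 1 library per mouse. WT lean and KO lean mice ate a diet with 10% of its energy from fat, and WT obese and KO obese mice ate 1 with 60%, from 6 weeks of age and for 15 weeks. The KO mice were CRISPR/Cas9-edited knockouts of Cmklr1, the gene for the resolvin E1 (RvE1) receptor ChemR23, with no cell type named as the target, and the WT mice were littermates. WT obese+RvE1 and KO obese+RvE1 mice ate the high fat diet and received 300 ng RvE1 by intraperitoneal injection on 4 consecutive days, while the other 4 groups received vehicle (ethanol in PBS). Livers were taken on day 5 after a fast of at least 4 hours. Each table holds 1 pair of groups with counts scaled within that pair, so groups were compared within a table only.

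BMP ligands such as BMP6, made in liver mainly by sinusoidal endothelial cells, bind receptors on hepatocytes and lead to phosphorylation of SMAD1, SMAD5 and SMAD9, which move with SMAD4 to the nucleus. Their known targets in liver include hepcidin, the hormone that closes the iron exporter ferroportin, the Id genes, and Smad6 and Smad7, which feed back to restrain the pathway. Smad9 is both a transducer and a target, and Tfrc takes up transferrin-bound iron and is controlled by cellular iron at the level of its mRNA.

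In the mouse the hepcidin gene is duplicated. Both copies lie on the minus strand of chromosome 7 (GRCm38): Hamp (ENSMUSG00000050440.8) at chr7:30942368-30944032 and Hamp2 (ENSMUSG00000056978.8) at chr7:30922372-30924681, and the noncoding gene Gm44662 spans both on the opposite strand. Upstream sequence of the pair is shown because their counts parted from each other in several mice, as described further on. In the 145 bases printed for each (RefSeq, GRCm38.p6, minus strand, at chr7:30944035-30944179 for Hamp and chr7:30924184-30924328 for Hamp2), 133 bases were identical. Both stretches are upstream of the start in RefSeq. That of Hamp2 lies inside the gene interval given above, which is from another annotation (GENCODE). Capitals mark GGCGCC, the core of the BMP-responsive element known in hepcidin promoters, or the bases of Hamp2 aligned to it, and the match to TTCNNNGAA, the consensus of STAT factors.
Hamp: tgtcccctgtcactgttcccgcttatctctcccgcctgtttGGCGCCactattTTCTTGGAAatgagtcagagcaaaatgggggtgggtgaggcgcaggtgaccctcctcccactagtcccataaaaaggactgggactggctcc
Hamp2: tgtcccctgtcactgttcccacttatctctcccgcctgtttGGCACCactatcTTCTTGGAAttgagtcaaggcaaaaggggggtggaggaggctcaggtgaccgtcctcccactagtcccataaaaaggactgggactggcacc

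GGCGCC began 109 bases before the annotated start of Hamp (position -109). The aligned bases of Hamp2, at position -106, carried the substitution G4A, counted from 1 at the first base of GGCGCC in Hamp. TTCNNNGAA was present in both, at -97 in Hamp and -94 in Hamp2, and did not overlap the first motif. Both motifs read the same on either strand. Of 32851 promoter windows of 300 bases, 11.9% held GGCGCC and 8.30% held TTCNNNGAA. Of the 10 genes, 8 had a window in the table, and 4 of these held GGCGCC (Hamp, Smad9, Id2 and Tfrc). The matches of Smad9 (chr3:54755501-54755566, plus strand, at -51) and Id2 (chr12:25096277-25096342, minus strand, at -231) are printed because these were genes that fell with diet in WT mice. Positions count from the RefSeq start. The stretch of Id2 lies inside the GENCODE interval given for that gene below, so it is upstream of the RefSeq start only.
Smad9: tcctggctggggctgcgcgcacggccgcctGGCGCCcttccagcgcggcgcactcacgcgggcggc
Id2: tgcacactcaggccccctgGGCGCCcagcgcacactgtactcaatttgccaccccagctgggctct

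The transcripts of Hamp and Hamp2 matched at 388 of 410 aligned bases. Of the 50-base windows of the Hamp transcript, 16.6% also occurred in Hamp2, and no 100-base window did. Counts of either gene could thus hold some reads of the other, and were taken as uncertain to that extent.

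Libraries held 15992556 to 43841273 reads on listed genes. Cmklr1 lay between 5.08 and 24.9 normalized counts in every KO library and between 30.1 and 148 in every WT library. Albumin, the main hepatocyte transcript, was at 449027 normalized counts or above in all of them, and p-values measure the spread between single mice. Mouse identifiers in the labels open with a number whose meaning is not given, such as 30 in 30L, 30R and 30RL, and all mice with 1 number were of 1 group except for number 23. Several of the genes below differed between numbers within a group, so results are also given with the number as a random block. Nothing in the labels says whether mice were housed or processed together.

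Per kilobase of exon, hepcidin was the most abundant of the 10 transcripts. In WT lean livers of the WT diet table, Hamp was at 16188 ± 3720 normalized counts per kb (SD, n = 7 here and below), followed by Id2 at 2598 ± 474. Hamp2 (723 ± 334) and Id3 (649 ± 259) came next and did not differ beyond their spread, and Id1 followed at 408 ± 179. Smad7 (110 ± 38.0), Smad9 (105 ± 47.9) and Tfrc (96.4 ± 69.8) lay within each other's spread, above Smad6 (57.1 ± 17.7) and Bmp6 (25.4 ± 6.84).

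The first comparison asked what the high fat diet did in WT livers. Of the 10 genes, 6 fell with diet at an adjusted p under 0.1 and none rose: Smad9, Id1, Id2, Id3, Hamp2 and Bmp6, each by 1.64-fold to 2.47-fold. Of all 14012 genes tested, 6.27% passed in either direction. The median log2 fold change of the 10 was -0.94, against 0.00 over all genes. In bulk tissue, fewer cells of a type and less RNA per cell cannot be told apart.

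Bmp6 (ENSMUSG00000039004.6, chr13:38345107-38500302, plus strand), the ligand, ranged in WT lean livers from 57.6 to 129 normalized counts with a median of 113, and in WT obese livers from 41.3 to 94.7 with a median of 51.6. The groups overlapped, with 4 of 7 WT obese mice below every WT lean mouse. Bmp6 had a log2 fold change of -0.71 ± 0.22 (SE, here and for all log2 fold changes) and an adjusted p of 0.096 (limma, Benjamini-Hochberg over all genes).

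Among the targets and transducers, Smad9 (ENSMUSG00000027796.2, chr3:54755582-54801257, plus strand) ranged from 299 to 1069 (median 503) in WT lean livers and from 155 to 378 (median 177) in WT obese livers. All 7 WT obese mice were below the WT lean median and 5 were below every WT lean mouse. It fell by 1.22 ± 0.27 on the log2 scale (adjusted p = 0.021, limma). Smad6 (ENSMUSG00000036867.7, chr9:63953076-64022059, minus strand), an inhibitory SMAD, had medians of 156 and 174 in lean and obese mice, and Smad7 (ENSMUSG00000025880.11, chromosome 18), the other inhibitory SMAD, had medians of 549 and 368. Neither passed: the log2 fold change of Smad6 was -0.16 ± 0.24 (adjusted p = 0.78) and that of Smad7 -0.43 ± 0.22 (adjusted p = 0.33, limma).

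The Id genes encode proteins that bind basic helix-loop-helix factors and keep them off DNA. Id1 (ENSMUSG00000042745.9, chr2:152736251-152737410, plus strand) ranged from 246 to 842 (median 447) in WT lean livers and from 95.3 to 384 (median 176) in WT obese livers. In 6 of 7 WT obese mice Id1 was below every WT lean mouse, mouse 27RL being the exception at 384. Id2 (ENSMUSG00000020644.9, chr12:25093799-25097140, minus strand) ranged from 4651 to 7605 (median 6541) and from 1800 to 5456 (median 3367), with 5 obese mice below the whole lean group. Id3 (ENSMUSG00000007872.3, chr4:136143497-136145755, plus strand) ranged from 598 to 1957 (median 1093) and from 234 to 904 (median 577), with 4 obese mice below the lean group. The log2 fold changes were -1.30 ± 0.31 for Id1 (adjusted p = 0.029), -0.94 ± 0.22 for Id2 (adjusted p = 0.029) and -0.94 ± 0.29 for Id3 (adjusted p = 0.088, limma).

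Hamp ranged from 4581 to 8602 normalized counts (median 7173) in WT lean livers and from 1168 to 7219 (median 3421) in WT obese livers. The WT obese mice lay apart by identifier number: the 3 mice of number 6 were at 1168 to 2124, the 3 of number 27 at 3421 to 6782 and the single mouse of number 22 at 7219. With a log2 fold change of -1.06 ± 0.36, Hamp did not pass (adjusted p = 0.12, limma). The value moved both ways with the mice left out, and Hamp passed in 4 of 21 such fits. Without the mice of number 6 the log2 fold change was -0.31. It was -1.27 ± 0.34 without number 22 (adjusted p = 0.042) and -1.51 ± 0.39 without number 27 (adjusted p = 0.088, limma). Without mouse 27RL alone it was -1.25 ± 0.34 (adjusted p = 0.062, limma). Hamp2 ranged from 248 to 792 (median 382) in lean and from 113 to 319 (median 214) in obese livers, with 5 obese mice below the whole lean group, a log2 fold change of -0.96 ± 0.28 and an adjusted p of 0.072 (limma). The mice of numbers 6 and 27 had mean Hamp2 counts of 216 and 218, so the split seen in Hamp was not seen in Hamp2.

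Tfrc (ENSMUSG00000022797.16, chr16:32608920-32632794, plus strand) ranged from 277 to 1548 (median 454) in WT lean and from 351 to 784 (median 582) in WT obese livers, with a log2 fold change of 0.11 ± 0.29 (adjusted p = 0.88, limma). The lean mouse 19R, at 1548, stood above all others, the next lean mouse being at 563.

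With the number taken as a random block, Smad9 was the only gene of the 10 to pass in this comparison (adjusted p = 0.087, limma), against 6 without the block. With equal read totals 4 of the 10 passed, and 510 of all 14012 genes. Id3 (adjusted p = 0.17), Hamp2 (0.102) and Bmp6 (0.25) no longer did, and Hamp did (adjusted p = 0.097, limma). Leaving out each mouse or identifier number in turn left 1 to 7 passing. The count was 1 without number 6, 2 without number 21, and 3 without any 1 of the mice 19R, 21L, 21R, 27-2R and 6R. Smad9 did not pass without number 6 (log2 fold change -0.91 ± 0.31, adjusted p = 0.19, limma). Its counts in WT obese mice were 155 to 177 in number 6, 165 to 345 in number 27 and 378 in the mouse of number 22. The adjusted p of Id1 was 0.13 with the block and that of Id2 was 0.16.

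**Figure D1:**
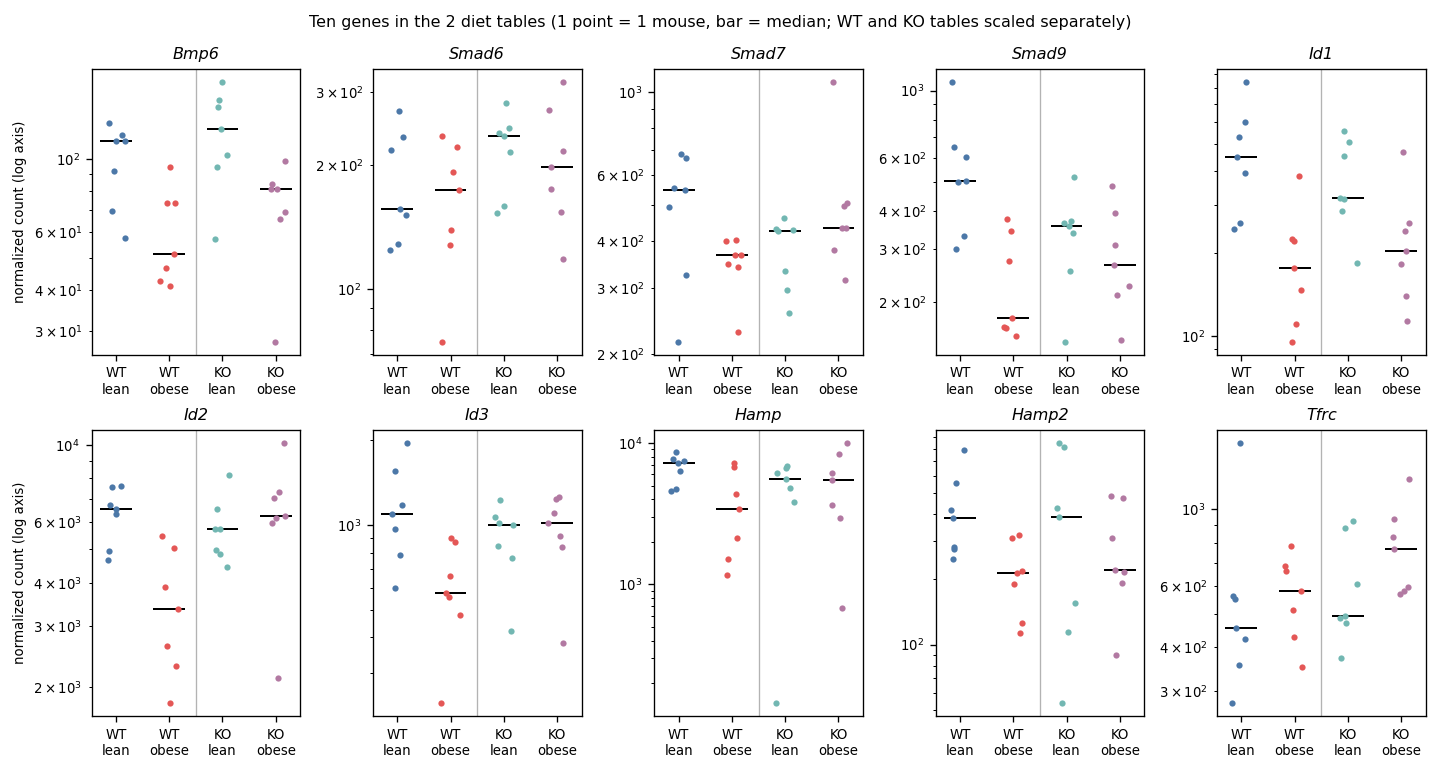
Normalized count (log axis) of each of the 10 genes in every mouse of the WT diet table (WT lean, WT obese) and the KO diet table (KO lean, KO obese), with 1 point per mouse and a bar at the group median. WT obese mice lie lower than WT lean mice for Smad9 (medians 177 and 503), Id1, Id2 and Id3, and a single KO lean mouse is far below the rest for Hamp at 144; the tables were scaled separately.

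The same diet comparison in KO mice asked whether these genes responded to diet without ChemR23. Of the 10 genes, 2 fell, Id1 and Bmp6, and none rose, where 24.1% of 14213 genes passed. The median log2 fold change of the 10 was -0.02, against 0.00 over all genes.

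Bmp6 ranged from 57.1 to 172 (median 123) in KO lean and from 27.9 to 98.8 (median 81.1) in KO obese livers, a log2 fold change of -0.73 ± 0.27 (adjusted p = 0.075, limma). Id1 ranged from 184 to 556 (median 318) in KO lean and from 114 to 469 (median 204) in KO obese livers, a log2 fold change of -0.75 ± 0.29 (adjusted p = 0.084, limma). Sinusoidal endothelial markers moved in the same comparison: 6 of 14 fell (Clec4g, Oit3, Fcgr2b, Kdr, Tek and Mrc1), with summed counts of 9144 to 13036 in KO lean and 5860 to 11236 in KO obese livers, and their part in the Bmp6 value was not tested. For both Bmp6 and Id1 the groups overlapped, with 1 KO obese mouse below the lean group for Bmp6 and 3 for Id1. Neither passed with the number as a random block (adjusted p = 0.20 for Bmp6 and 0.26 for Id1), with equal read totals, or without any 1 of the mice 10RL, 10R, 20L, 31R and 9L or any 1 of the numbers 9, 10, 14 and 31.

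The SMAD and other Id genes did not pass in KO mice. Smad9 had medians of 358 in KO lean and 266 in KO obese livers, with a log2 fold change of -0.22 ± 0.27 (adjusted p = 0.62). Id2 and Id3 had log2 fold changes of 0.06 ± 0.25 (adjusted p = 0.89) and 0.07 ± 0.26 (adjusted p = 0.87), Smad7 of 0.39 ± 0.22 (adjusted p = 0.23) and Smad6 of -0.11 ± 0.20 (adjusted p = 0.74, limma). In KO obese livers 1 mouse, 10RL, was lowest of its group for every gene of the 10 but Smad6, with Id2 at 2130 against 5935 in the next mouse.

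Hamp in KO livers ranged from 144 to 6929 (median 5528) in the lean and from 675 to 10005 (median 5449) in the obese group. The lean mouse 9RL, at 144, was far below the other 6 lean mice, which lay between 3851 and 6929, and it also had the lowest KO lean counts of Hamp2 (53.8), Id1 (184), Id3 (421.5), Smad7 (258) and Smad6 (153). Hamp had a log2 fold change of 0.33 ± 0.77 with all mice (adjusted p = 0.80) and of -0.42 ± 0.46 without 9RL (adjusted p = 0.58, limma). Hamp2 ranged from 53.8 to 849 in KO lean and from 89.9 to 486 in KO obese livers, a log2 fold change of -0.13 ± 0.55 (adjusted p = 0.90, limma). Tfrc had medians of 492 and 769, and a log2 fold change of 0.40 ± 0.21 (adjusted p = 0.21, limma).

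The difference between the diet responses of the genotypes was tested directly, as the KO minus the WT log2 fold change over 28 libraries. None of the 10 genes passed, and 0.00718% of 13924 genes did. The differences were 1.01 ± 0.41 for Smad9 (adjusted p = 0.19), 1.00 ± 0.36 for Id2 (adjusted p = 0.16), 1.01 ± 0.41 for Id3 (adjusted p = 0.19) and 0.81 ± 0.33 for Smad7 (adjusted p = 0.19, limma), and the unadjusted p of each of these 4 was under 0.05, as it was for 18.3% of all genes. By the DESeq2 Wald test on the recovered reads, Id2 (adjusted p = 0.067), Smad7 (adjusted p = 0.073) and Id3 (adjusted p = 0.0997) passed, where 6.65% of all genes passed by that test. For Bmp6 the difference was -0.02 (95% interval -0.77 to 0.72).

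**Figure D2:**
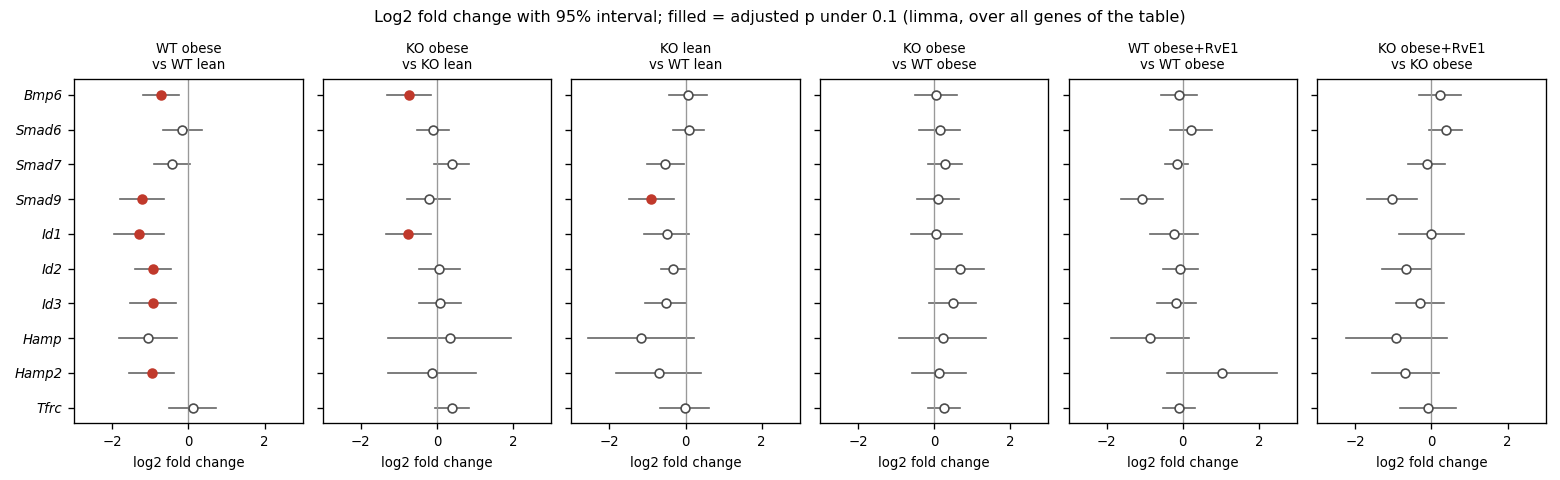
Log2 fold change (x axis) with its 95% interval for each of the 10 genes (y axis) in the 6 comparisons, 1 panel each; filled circles passed an adjusted p of 0.1 in limma over all genes of the table. Filled circles number 6 in the WT diet panel, 2 in the KO diet panel, 1 in the lean genotype panel and 0 in the other 3.

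Lean mice of the 2 genotypes were compared next. Smad9 was the only gene of the 10 to pass, lower in KO lean than in WT lean livers, where 16.3% of 13031 genes passed. Smad9 ranged from 311 to 1109 (median 523) in WT lean and from 134 to 472 (median 325) in KO lean livers, and 3 KO lean mice were below every WT lean mouse. Its log2 fold change of -0.91 ± 0.28 (adjusted p = 0.060, limma) did not pass once the number was a random block (adjusted p = 0.16), nor without any 1 of the mice 20-2L, 20L, 9L, 21L and 26R, whose removal gave an adjusted p of 0.11 to 0.12, nor without number 9, 21 or 26. Without number 20, Id3 and Hamp2 passed as well as Smad9, Hamp2 with a log2 fold change of -1.64 ± 0.45 (adjusted p = 0.036, limma). In that comparison all genes were sensitive to the block, with 2123 passing without it and 3 with it.

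Of the others, 7 had negative log2 fold changes and 2 positive ones, all without passing in limma. Smad7 was at a median of 571 in WT lean and 387 in KO lean livers, with a log2 fold change of -0.53 ± 0.23 (adjusted p = 0.15, limma), and passed by edgeR (adjusted p = 0.099) and DESeq2 (adjusted p = 0.063), by which 16.4% and 19.8% of all genes passed. Hamp ranged from 4760 to 8948 (median 7440) in WT lean and from 131 to 6288 (median 5020) in KO lean livers. Its log2 fold change of -1.17 ± 0.66 (adjusted p = 0.27) became -0.42 ± 0.18 without mouse 9RL (adjusted p = 0.16, limma). Hamp2 in KO lean livers followed the identifier number, at 353 to 771 in the 3 mice of number 20, at 141 and 386 in those of number 14 and at 48.8 and 104 in those of number 9. Bmp6 differed little, with medians of 118 and 112 and a log2 fold change of 0.07 (95% interval -0.43 to 0.56).

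Kupffer cell markers, which were higher in KO lean livers, moved in the same comparison: 9 of 9 tested rose, and their summed counts were 4455 to 9302 in WT lean and 10223 to 21485 in KO lean livers. With the number as a random block only 3 of all 13031 genes passed between lean genotypes, so at least 6 of these 9 calls were lost there. In the KO diet comparison 8 of these 9 fell with diet, with sums of 11266 to 23695 in KO lean and 6251 to 8710 in KO obese livers. Clec4f and Vsig4, defining markers of these resident macrophages, had log2 fold changes of 0.98 ± 0.23 (adjusted p = 0.036) and 0.84 ± 0.18 (adjusted p = 0.031, limma) between lean genotypes. None of the 9 listed markers was at 0 in all mice of a group, and the part of these cells in the values of the 10 genes was not tested. Of 12 immediate early genes, 12 had negative log2 fold changes in KO lean livers (median -0.95) and 3 fell (Fosl2, Atf3 and Dusp1), with summed counts of 14457 to 35799 in WT lean and 3625 to 23722 in KO lean livers, and their part was not tested either.

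The genotypes were also compared in obese mice. None of the 10 genes passed, where 0.0141% of 14162 genes did, and 319 genes had an unadjusted p below 0.05 in limma. DESeq2 and edgeR likewise gave 0 of the 10. Id2 ranged from 1988 to 6029 (median 3704) in WT obese and from 2065 to 9741 (median 6087) in KO obese livers, with 4 KO obese mice above every WT obese mouse and a log2 fold change of 0.67 (95% interval 0.03 to 1.31, adjusted p = 1.00, limma). Smad9 had medians of 196 and 257 with a log2 fold change of 0.10 (95% interval -0.46 to 0.66). Hamp spread widely, from 1281 to 7919 in WT obese and from 655 to 9577 in KO obese livers, and the interval of its log2 fold change ran from -0.92 to 1.37.

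RvE1 was compared with vehicle in obese mice of each genotype. Smad9 had the lower median with RvE1 in both. WT obese livers had 182 to 443 normalized counts of Smad9 (median 209) and WT obese+RvE1 livers 69.3 to 188 (median 130), with 6 of 7 treated mice below every vehicle mouse. This is the contrast that drew attention to the gene, so its log2 fold change of -1.08 ± 0.26 is given as a description. In the KO table, KO obese livers had 151 to 489 (median 269) and KO obese+RvE1 livers 67.2 to 247 (median 145), with 4 treated mice below every vehicle mouse. The log2 fold change there was -1.03 ± 0.31 and did not pass (adjusted p = 0.56, limma). With each mouse or number left out in turn, it passed in 1 of 19 fits. That was the fit without the mice of number 10, at -1.34 ± 0.35 (adjusted p = 0.095, limma). Without the mice of number 31 the log2 fold change was -0.65 ± 0.34 and did not pass. The KO minus WT difference was 0.05 on the log2 scale, with a 95% interval from -0.82 to 0.91. It includes the WT contrast from which the gene was chosen, so it too is a description and no test of the genotypes.

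None of the 10 genes passed in either RvE1 comparison in limma, and 0% of all genes (13085 and 14207) did. Genes with an unadjusted p below 0.05 numbered 795 in WT mice and 1179 in KO mice, while edgeR called 1 and 0 genes and DESeq2 25 and 17 over all genes. Smad6, Smad7, Id1, Id2, Id3, Bmp6 and Tfrc had log2 fold changes between -0.22 and 0.21 in WT mice. In KO mice Id2 had medians of 6370 with vehicle and 3027 with RvE1, and a log2 fold change of -0.66 ± 0.31 (adjusted p = 0.59, limma). Hamp was lower by the median in both genotypes, 4014 against 1827 in WT and 5493 against 3403 in KO mice. Its log2 fold changes were -0.85 ± 0.48 (adjusted p = 0.89) and -0.93 ± 0.63 (adjusted p = 0.67, limma). Both values depended on the identifier numbers included. In WT mice the value was 0.10 ± 0.54 without number 7 and -1.56 ± 0.47 without number 30. In KO mice it was -0.21 ± 0.72 without number 31 and -1.74 ± 0.61 without number 10. The vehicle and treated groups overlapped in both tables.

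**Figure D3:**
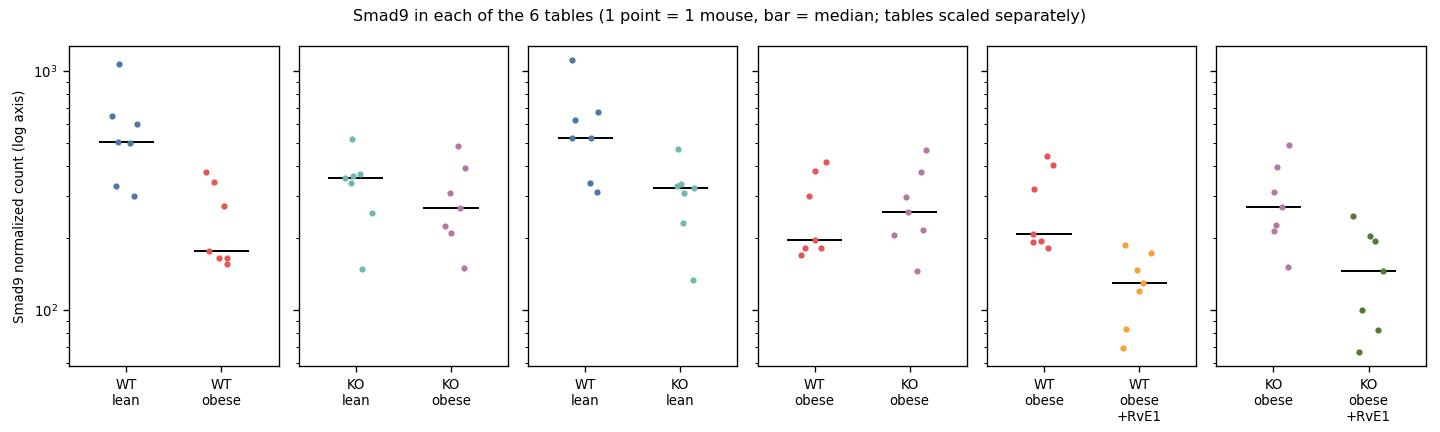
Smad9 normalized count (log axis) in every mouse of the 6 tables, 1 panel per table, with a bar at each group median; tables were scaled separately. Within its table, WT lean lies above WT obese (medians 503 and 177), and each RvE1 group lies below its vehicle group (130 against 209 in WT and 145 against 269 in KO mice).

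Hamp2 separated the WT obese+RvE1 mice by identifier number. Mice of these numbers differed widely: 39.7% of all 13085 genes did not overlap between the 3 mice of number 30 and the 4 of number 7, so the genes below are not singled out by that. The 3 mice of number 30 had 2063, 2044 and 1379 normalized counts (30L, 30RL and 30R), and the 4 mice of number 7 had 47.5 to 304. The vehicle mice, at 133 to 377, lay with the mice of number 7. With all mice the log2 fold change was 1.03 ± 0.68 (adjusted p = 0.92), and without number 30 it was -0.39 ± 0.46 (adjusted p = 0.73, limma). Without number 7 it was 2.94 ± 0.31, but the treated mice left were the 3 of number 30. That value restates the split and is no test of RvE1. Id1, at 239 to 299 in the mice of number 30 and 114 to 150 in those of number 7, and Smad6, at 132 to 152 and 262 to 319, also did not overlap between the numbers. Neither did Hamp, at 2401 to 6662 in the mice of number 30 and 825 to 1827 in those of number 7. Hamp2 in KO obese+RvE1 mice was at 56.7 to 439, and the KO minus WT difference was -1.73 ± 0.85 (adjusted p = 1.00, limma), with 0% of 13059 genes passing.

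As a share of the summed counts of both hepcidin genes, Hamp2 had medians of 5.55% and 8.31% in WT lean and WT obese livers, and of 9.95% and 5.46% in the matching KO groups. With RvE1 the medians were 17.1% in WT obese and 11.4% in KO obese livers. The spread within groups was wide, from 1.08% in a KO obese+RvE1 mouse to 46.2% in mouse 30L. In the 3 mice of number 30 the share was 17.1% to 46.2%. Their Hamp counts of 2401 to 6662 lay within the range of the vehicle mice, at 1369 to 8463, while their Hamp2 counts lay above every vehicle mouse. Against the treated mice of number 7, with Hamp at 825 to 1827, they were higher in both genes. In KO lean mouse 9RL, by contrast, a share of 27.1% came with low counts of both genes.

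**Figure D4:**
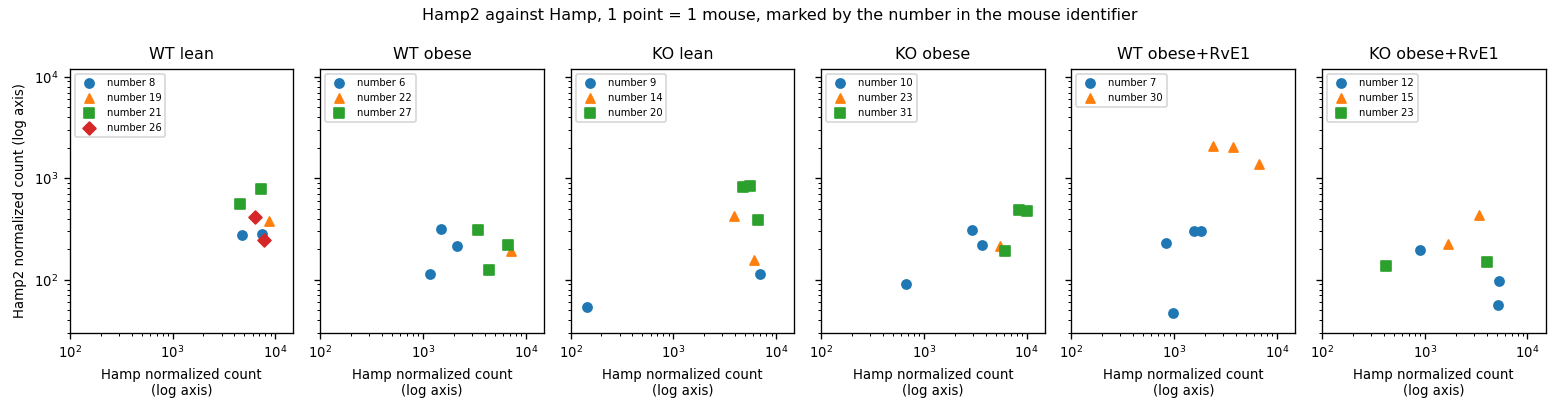
Hamp2 against Hamp normalized count (both log axes), 1 panel per group and 1 point per mouse, with marker shape for the number that opens the mouse identifier. The 3 WT obese+RvE1 mice of number 30, at 1379 to 2063 Hamp2 counts, lie above all other mice, and KO lean mouse 9RL lies alone at a Hamp count of 144.

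Within groups, several of the 10 genes varied together from mouse to mouse. On log2 values minus the group mean over 42 mice, 36 of the 45 pairs (80%) had a positive Pearson r. Among the 10694 genes with a mean of at least 50, 50.2% of all pairs did. The 45 pairs share genes and the set was chosen by hand, so these shares are descriptions. By permutation tests within groups, 15 pairs passed an adjusted p of 0.1 for both Pearson's r and Spearman's rho (Benjamini-Hochberg over 45 pairs). Mice were permuted without regard to identifier number, so the p-values take no account of likeness within a number. Id1 and Hamp had r = 0.65 (adjusted permutation p = 0.0002) and rho = 0.66 (adjusted permutation p = 0.0018), r = 0.62 without the 2 mice farthest from the median in Id1, and r = 0.70 after the mean of each identifier number was also removed. Id1 and Id3 had r = 0.67 (adjusted permutation p = 0.0004) and rho = 0.65 (adjusted permutation p = 0.0018), with r = 0.62 without 2 mice and 0.73 within numbers. Smad9 and Hamp had r = 0.39 (adjusted permutation p = 0.045) and rho = 0.49 (adjusted permutation p = 0.014), with r = 0.41 without 2 mice and 0.47 within numbers.

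Hamp and Hamp2 were less alike: r was 0.45 (adjusted permutation p = 0.031) and rho 0.28 (adjusted permutation p = 0.19), and r was 0.27 without the 2 mice farthest in Hamp and 0.20 within numbers, so the relation was weaker both without those mice and within numbers. Smad6 and Hamp2 had a negative r of -0.36 (adjusted permutation p = 0.070) and a rho of -0.40 (adjusted permutation p = 0.055), and r was 0.16 within numbers, so the negative relation did not hold there. Tfrc with Hamp had r = 0.07 (adjusted permutation p = 0.73).

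**Figure D5:**
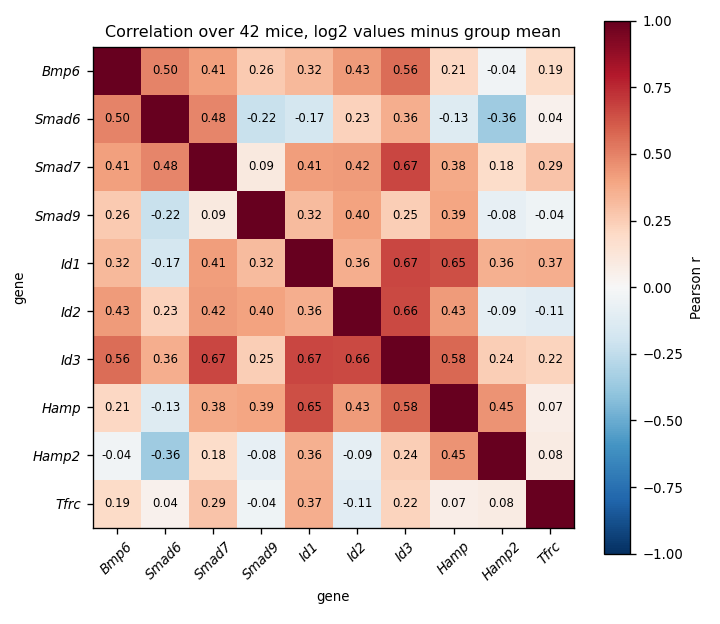
Pearson r (colour and number) between each pair of the 10 genes over 42 mice, on log2 normalized counts minus the group mean. Id3 has values of 0.56 to 0.67 with Smad7, Id1, Id2, Hamp and Bmp6, and Id1 with Hamp has 0.65, while Tfrc stays at 0.37 or below with all others.

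The same 42 mice were used to compare 10693 other genes, with a mean of at least 50 in each of the diet and RvE1 tables. The genes most like Smad9 were Egfr (r = 0.67), Serpina4-ps1 (r = 0.66) and Sde2 (r = 0.66). Those most like Id1 were Gch1 (r = 0.78), Fuom (r = 0.77) and Il11ra1 (r = 0.76), and those most like Hamp were Etnk2, Asl and Slc43a1 (r = 0.70, 0.70 and 0.69, respectively). These are descriptions, since they are the highest values out of many.

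The rest of the pathway was read from lists of genes. The shares of all genes passing in the WT diet, KO diet and lean genotype comparisons, 6.27%, 24.1% and 16.3%, are the background for every count that follows. Among 8 tested BMP ligands and co-factors, Bmp5 fell and Bmp7 rose with diet in WT mice. Bmp5 went from 189 ± 17.8 in WT lean to 132 ± 27.9 in WT obese livers (log2 fold change -0.53 ± 0.13, adjusted p = 0.036), and Bmp7 from 37.9 ± 6.56 to 62.4 ± 15.5 (0.68 ± 0.18, adjusted p = 0.043, limma). In KO mice 0 of the 8 passed with diet. Between lean genotypes Bmp4 and Bmp5 were lower and Bmp2 higher in KO mice, with log2 fold changes of -0.69 ± 0.21 (adjusted p = 0.060), -0.45 ± 0.14 (adjusted p = 0.061) and 0.42 ± 0.15 (adjusted p = 0.091, limma).

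Of 12 tested BMP and hepcidin receptors and regulators, 0 passed with diet in WT mice and 4 in KO mice, the difference between genotypes passing for 0 of the 12. In KO mice Bmpr2 (log2 fold change 0.76 ± 0.24, adjusted p = 0.043) and Acvr1 (0.49 ± 0.15, adjusted p = 0.044) rose and Eng (-0.32 ± 0.10, adjusted p = 0.051) and Tmprss6 (-0.31 ± 0.12, adjusted p = 0.083, limma) fell. Bmpr2 and Acvr1 are BMP receptors, and Tmprss6 is the protease that cleaves the co-receptor hemojuvelin. Bmpr2 was also lower in KO lean than in WT lean livers (-0.65 ± 0.18, adjusted p = 0.046), as was Neo1, with 2 of 12 passing. None of the 5 SMAD transducers (Smad1, Smad2, Smad3, Smad4 and Smad5) passed in any comparison.

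Among 13 antagonists and feedback genes, Fst, which encodes follistatin, fell with diet in WT (-2.14 ± 0.52, adjusted p = 0.032) and in KO mice (-1.49 ± 0.35, adjusted p = 0.015), and Bambi, Nbl1 and Chrd fell in KO mice. The difference in diet response between genotypes did not pass for any of the 13. Other BMP target genes (8 tested) had 0 passing in WT mice with diet, and Runx1 and Pmepa1 rose in KO mice. The branch of the pathway that serves TGF-beta and activin had 0, 1 and 2 of 13 genes passing in the WT diet, KO diet and lean genotype comparisons.

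Of 23 iron handling genes, Steap2, a metalloreductase, fell with diet in WT mice (-0.58 ± 0.17, adjusted p = 0.069) and in KO mice (-0.45 ± 0.15, adjusted p = 0.050, limma). In KO mice 8 of the 23 passed, where 24.1% of all genes did, and 5 of them rose, among them Lcn2 (2.69 ± 0.45, adjusted p = 0.0035) and the ferroxidase Cp (0.54 ± 0.14, adjusted p = 0.021), and Hpx was also among those that fell (-0.60 ± 0.24, adjusted p = 0.098, limma). The inflammatory arm of hepcidin control, through IL6 and STAT3, had 13 genes tested: Crp fell in WT mice with diet (-0.40 ± 0.12, adjusted p = 0.079), and Il6ra, Jak2, Saa1 and Saa2 rose in KO mice with diet, the difference between genotypes passing for 0 of the 13. In KO mice Il6ra rose by 1.30 ± 0.34 (adjusted p = 0.021) and Saa1 by 1.86 ± 0.57 (adjusted p = 0.039, limma) on the log2 scale. In obese genotype and RvE1 comparisons 0 genes of any of these lists passed.

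Other genes moved beside the fall in WT obese livers. Sinusoidal endothelial cells are a main source of BMP6 in liver, and their 14 markers all had negative log2 fold changes there, with 1 passing (Dnase1l3, -0.74 ± 0.17, adjusted p = 0.029, limma), and summed counts of 6142 to 9825 in WT lean and 4829 to 8088 in WT obese livers. Of 12 immediate early genes 10 had negative log2 fold changes and Atf3 passed (-1.67 ± 0.47, adjusted p = 0.062, limma), with sums of 13913 to 34424 in lean and 7331 to 22597 in obese livers. Negative values were not particular to the endothelial markers, whose median was -0.27. Of the 8 hepatocyte markers 0 passed, and all 8 had negative log2 fold changes, with a median of -0.20. All 8 stellate markers were negative as well (median -0.15), with 0 passing. Kupffer markers (9 tested, 4 negative) and erythroid markers (3 of 8 tested, 1 negative) had 0 passing. The part of these cells and of the early genes in the values of the 10 genes was not tested.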

How the data were processed

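Liver RNA of 42 mice was sequenced with a stranded library kit. Per the labels and methods, the authors aligned reads to mm10 with Bowtie2, counted them with featureCounts (Subread) and deposited, for each of 6 pairs of groups, counts divided by DESeq2 size factors; tool versions and the strand option of the counting were not found in the labels or methods. The deposited normalized values are thus a signal on a count scale, and 100% of them gave whole reads, within 0.1 read, once divided by the value of 1 read. The tables also hold the authors' fold changes and p-values, which were not used. Libraries held 15992556 to 43841273 reads on listed genes (median 24298307).

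log2(normalized count + 1) was tested with limma 3.58.1 (R 4.3.3, linear models with a mean-variance trend in eBayes), two-sided, within each table, over genes with a mean of at least 5, with Benjamini-Hochberg adjustment and a threshold of 0.1 as in the study. Fold changes are on that scale and understate changes of low genes. Interactions used 28 libraries. Alternatives were pseudocounts of 0.5 and 4, no filter, TMM scaling, equal read totals, the identifier number as a random block (duplicateCorrelation), edgeR 4.0.16 quasi-likelihood and DESeq2 1.42.0 Wald tests on recovered reads, a threshold of 0.05, a fold above 1.5, and leaving out each mouse or identifier number. The fit was tested on simulated data. No 2 libraries of a group were alike within sampling noise (lowest chi-square per gene 21.9 in 126 pairs). Replicate numbers follow accession order and pair nothing. Separate mice were the replicates.

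The 10 genes and the gene lists were chosen with earlier results of these data known. All 10 genes were named; in each list, counts and up to 4 genes of smallest adjusted p (1 such gene is not reported here); and for Smad9, Id1 and Hamp the 3 genes of highest Pearson r. Positions and exon lengths are from GENCODE M21 (GRCm38, the same assembly as mm10), promoters from RefSeq (GRCm38.p6). Windows for Id1 and Smad7 and protein sequences were not used here.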

Additional observations from a re-analysis of the deposited data

Results flagged for a closer look

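With Dixon's test at the 95% level on log2 values, 9 of 60 gene-by-group sets of 7 mice had a mouse apart from the others, where chance flags about 1 in 20. In KO obese mice, 10RL was lowest for Id2 (2130 normalized counts, next 5935), Id3 (381, next 840) and Bmp6 (27.9, next 65.9), so 3 of the 9 come from 1 library. In KO lean mice, 9RL was lowest for Hamp at 144 (next 3851). Tfrc was highest in WT lean mouse 19R at 1548 (next 563) and in WT obese+RvE1 mouse 30RL at 1096 (next 631). Smad7 was lowest in WT obese mouse 27-2L at 229.7 (next 342) and in WT obese+RvE1 mouse 7RL at 258 (next 351), and highest in KO obese mouse 31R at 1065 (next 506).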

How the results depend on the processing

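Counts of the 10 genes passing depended on how mice were treated. For WT diet (6 passing), the count was 1 with the number as a random block and 3 at an adjusted p under 0.05, 4 with equal read totals, 5 with no filter (without Bmp6), and 1 to 7 when a mouse or number was left out. For KO diet (2 passing) it was 0 with the block, with equal read totals and at 0.05, and 0 to 2 with leaving out. For lean genotypes (1 passing) it was 0 with the block and at 0.05, 2 with equal read totals, edgeR and DESeq2, and 0 to 3 with leaving out. DESeq2 gave 3 genes for the diet by genotype difference and 1 for RvE1 in WT mice, both 0 in limma; the 1 gene was Smad9, in the contrast that it was chosen from, so that count is no test of it, and leaving out gave 0 to 1 for RvE1 in each genotype and for the RvE1 difference, and 0 to 2 for the diet difference. Obese genotypes kept 0 throughout. Pseudocounts and TMM changed no call among the 10 genes. Of their values over all alternatives, 2513 kept their side of the threshold, 90 lost and 27 gained a call, and 0 reversed. Most of the 2513 belong to results that did not pass in the main fit, and only results that passed there could lose a call. With a mouse or number left out, Smad9, Id1 and Id2 passed for WT diet in 20, 19 and 20 of 21 fits. Id3, Hamp2 and Bmp6 did so in 6, 10 and 7 of 21. For KO diet, Id1 and Bmp6 each passed in 8 of 20 fits, and for lean genotypes Smad9 passed in 13 of 21. With number 7 left out Hamp2 passed for RvE1 in WT mice and for the RvE1 difference. No paired analysis was possible because mice were numbered in accession order and no number is shared between the groups of a pair, apart from the mice of number 23 in the KO RvE1 table. Equal read totals moved the median of all genes by 0.14 on the log2 scale in the KO diet table and by -0.12 between lean genotypes.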
